A study of Homo sapiens with 6 samples.

Results

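The classical protein tyrosine phosphatases were described in human AID-DIvA cells with and without ARID1A. Members are the genes of the deposited tables that carry the names PTPN or PTPR, each followed by the number or letter of an individual enzyme. This gave 36 genes of 57820 in the tables, 20 of the receptor type and 16 of the non-receptor type. AID-DIvA cells derive from the osteosarcoma line U2OS and carry the restriction enzyme AsiSI fused to an auxin-dependent degron, whose activity can be switched on to cut the genome at known sites. All 6 samples were untreated, 3 WT and 3 ARID1A-KO, both on this background, and RNA was measured by stranded RNA-seq. ARID1A is the DNA-contacting subunit of a SWI/SNF chromatin remodelling complex, and its gene was disrupted by CRISPR-Cas9 with a pair of guide RNAs. Knockout clones were established, and the clone behind the 3 ARID1A-KO samples is not given in the sources used here. They may therefore share a clone, and the effects of ARID1A and of clonal selection cannot be told apart. For the figure with its RNA-seq, the paper states 3 independent experiments and calls them biological replicates. The labels number the samples 3 to 5 in each genotype and do not name separate cultures. The p-values measure the spread between these samples.

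Protein tyrosine phosphatases remove phosphate from tyrosine residues and thereby oppose or, at some sites, activate tyrosine kinases. Receptor types span the plasma membrane and combine cell adhesion-like outer parts with catalytic domains inside the cell, and several bind the same protein on a neighbouring cell. Non-receptor types reach their substrates through SH2, FERM, PDZ and other targeting domains. In mesenchymal cells, including bone-forming cells, these enzymes act on growth factor receptors, SRC family kinases, focal adhesions and cadherin complexes.

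Reverse-stranded counts summed to 59864474 to 72413018 in WT and 54512105 to 84088708 in ARID1A-KO samples, and 3 counts correspond to 0.0341 to 0.0546 CPM, the reads of a gene scaled to a common library size. ARID1A (ENSG00000117713.13) stood at 173 ± 6.67 CPM in WT and 25.9 ± 1.38 CPM in ARID1A-KO (SD, n = 3 each), and fell by 2.74 on the log2 scale (SE 0.07, Benjamini-Hochberg adjusted p = 9.66e-08 from the quasi-likelihood test of edgeR). Of 9 osteoblast lineage markers, 6 passed the filter on low counts, and IBSP, BGLAP and SP7 lay at 0.18 CPM or less in every sample. ALPL, COL1A1, SPARC and SPP1 fell, and the summed level of the 9 genes was 1235 to 1295 CPM in WT and 726 to 809 CPM in ARID1A-KO. In bulk RNA, fewer cells of a kind and less RNA per cell cannot be told apart.

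Among the 36 phosphatase genes, 33 passed the filter on low counts and were tested. Most of the called genes were of the receptor type. PTPRH and PTPRU rose, PTPRM, PTPRJ, PTPRC and PTPRD fell, and 10 of 14 tested non-receptor genes were not called. At an adjusted p under 0.05, 15 of the 33 were called (45.5%), where 36.2% of all genes tested were called. Of these, 4 were higher and 11 lower in ARID1A-KO, beside 17.8% and 18.4% of all genes. PTPRD and PTPRO, both counted as lower, passed the filter on low counts through their WT samples. The median log2 fold change, ARID1A-KO over WT, was -0.11 for the 33 genes and 0.01 for all 19599 tested genes. The CPM of the genotypes did not overlap for 22 of the 33 genes, where 49.5% of all genes tested showed no overlap. Of 19 tested receptor genes, 3 rose and 8 fell (median -0.19), and of 14 tested non-receptor genes, 1 rose and 3 fell (median 0.02). The difference between receptor and non-receptor genes was not tested. With each sample left out in turn, 11 of the 15 genes kept their call in all 6 fits. Calls higher rose to 8 without ARID1A-KO replicate 5, and calls lower came to 7 without ARID1A-KO replicate 4.

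**Figure D1:**
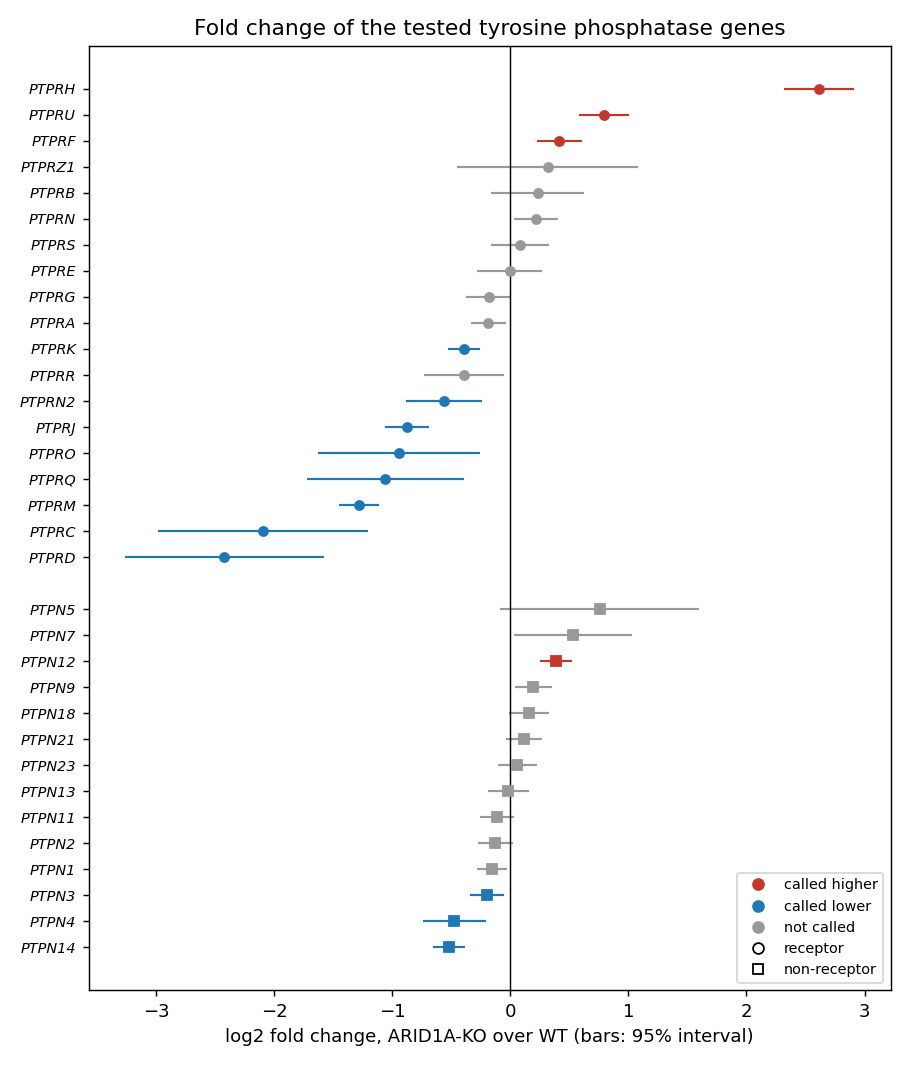
Log2 fold change of the 33 tested genes, ARID1A-KO over WT, with receptor genes (circles) above non-receptor genes (squares). Points are edgeR estimates from 3 samples a genotype, bars are 95% intervals, and colours give the call, with PTPRH at 2.61 and PTPRD at -2.42 as the ends of the range.

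PTPRM, an adhesion receptor that binds itself on the neighbouring cell and acts at cadherin contacts, is the member that lies beside an AsiSI site. The gene (ENSG00000173482.12) occupies chr18:7566780-8406859 on the plus strand of GRCh37. An AsiSI site lies 60 bases before its start, and another in an intron 1.57 kb after it. PTPRA holds a site in a non-coding part of an exon, 9.35 kb after its start. The sequences are shown because these are the places where the enzyme could cut in or beside a member, with the recognition site GCGATCGC in capitals, which reads the same on both strands. They are from the GRCh37 reference, plus strand, at chr18:7566680-7566779, chr18:7568341-7568370 and chr20:2854169-2854198.
PTPRM upstream: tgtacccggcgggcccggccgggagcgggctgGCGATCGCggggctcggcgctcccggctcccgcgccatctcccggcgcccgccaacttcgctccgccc
PTPRM intron: ctgcgcccgcaGCGATCGCcgggaactggc
PTPRA exon: cgcgcgcgcgcGCGATCGCgctcggacccc
The 100 bases before PTPRM hold 18 CG dinucleotides. The motif occurs 1211 times on the autosomes and X. In a window from 250 bases before to 50 bases after the gene start, 1 of the 36 members (2.78%) held it, as did 67 of 57241 genes (0.117%) and 49 of 19566 tested genes (0.250%). PTPRM was known to lie near a break site when the members were chosen, so these shares are a description only. The nuclease was not switched on in these samples, so the values below describe cells without induced breaks. Cutting at these sites was not measured.

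PTPRM measured 65.7, 65.2 and 75.2 CPM in the WT samples and 29.4, 28.2 and 27.3 CPM in the ARID1A-KO samples. Every WT sample lay above 65 CPM and every ARID1A-KO sample below 30 CPM. The gene fell by 1.28 on the log2 scale (SE 0.08, 95% interval -1.45 to -1.11, adjusted p = 4.39e-06, edgeR), or 2.43-fold. The highest adjusted p with any sample left out was 5.96e-05 in edgeR. Its 62 tested neighbours within 5 Mb had a median log2 fold change of -0.01, so the fall of PTPRM did not extend to the surrounding genes as a group. PTPRA, an activator of SRC kinases and the other member with a site, was not called. It measured 29.8, 32.4 and 32.6 CPM in WT and 27.5, 28.3 and 27.5 CPM in ARID1A-KO, without overlap, with a log2 fold change of -0.19 (95% interval -0.34 to -0.04, adjusted p = 0.0551, edgeR). The call of PTPRA passed the threshold without WT replicate 3 (adjusted p = 0.0395, edgeR).

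PTPRM belongs to the receptors with an outer MAM domain, together with PTPRK, PTPRU and PTPRT, which share cell-to-cell adhesion as a known role. PTPRU rose while PTPRM and PTPRK fell. PTPRU, which binds beta-catenin, measured 32.2, 37.1 and 41.3 CPM in WT and 60.6, 68.6 and 62.5 CPM in ARID1A-KO. The samples of the genotypes were well apart, and the rise was 0.79 on the log2 scale (SE 0.09, adjusted p = 0.000226, edgeR), or 1.73-fold. PTPRK, known to dephosphorylate EGFR and junction proteins, was lower 1.31-fold (adjusted p = 0.000951, edgeR). PTPRT, an enzyme of the nervous system, gave 1 to 15 reads a sample and was not tested. Expressed per kb of exon, which allows genes to be set side by side, the subfamily as a whole stood at 21.7 ± 1.60 CPM per kb in WT and 19.4 ± 0.63 in ARID1A-KO (SD, n = 3 each). The makeup of that sum differed more than the sum. PTPRM gave 32.0 ± 1.2% of it in WT and 14.7 ± 0.70% in ARID1A-KO, PTPRU 25.3 ± 1.3% and 49.1 ± 1.8%, and PTPRK 42.6 ± 1.4% and 36.2 ± 1.2%. PTPRK was thus the leading gene of this subfamily in WT samples and PTPRU in ARID1A-KO samples.

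The receptors with fibronectin repeats and a single catalytic domain are PTPRB, PTPRH, PTPRJ, PTPRO and PTPRQ. PTPRH, known as SAP-1 from the microvilli of gastrointestinal epithelium, had the highest fold change of all 33 tested genes. It measured 3.37, 2.96 and 2.35 CPM in WT and 18.01, 18.32 and 16.99 CPM in ARID1A-KO. The lowest ARID1A-KO sample stood far above the highest WT sample, and the rise was 2.61 on the log2 scale (SE 0.13, adjusted p = 2.43e-06, edgeR), or 6.12-fold. Epithelial markers did not move as a group beside it. EPCAM rose, CDH1 and KRT14 fell, KRT5 was not tested, and the sum of these 4 genes was 6.07 to 8.38 CPM in WT and 7.46 to 7.90 CPM in ARID1A-KO. PTPRJ, a broadly expressed antagonist of growth factor receptors also called DEP-1, measured 35.6, 37.2 and 33.1 CPM in WT and 20.7, 19.3 and 17.6 CPM in ARID1A-KO. These values did not overlap, and PTPRJ fell by 0.88 on the log2 scale (SE 0.08, adjusted p = 6.09e-05, edgeR), or 1.84-fold.

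The fall of PTPRJ and the rise of PTPRH reordered this subfamily, whose summed level was 6.45 ± 0.33 CPM per kb in WT and 7.52 ± 0.22 in ARID1A-KO (SD, n = 3 each). PTPRJ made up 79.6 ± 1.4% of the sum in WT and 37.1 ± 1.9% in ARID1A-KO, and PTPRH 10.3 ± 1.4% and 54.4 ± 1.1%. PTPRB, the endothelial VE-PTP, was not called (log2 fold change 0.23, 95% interval -0.16 to 0.62). The remaining members were rare. PTPRQ, known from sensory hair cells of the inner ear, gave 116, 54 and 77 reads in WT and 39, 30 and 61 in ARID1A-KO, or 1.74, 0.76 and 1.32 CPM against 0.57, 0.55 and 0.69 CPM. Its CPM did not overlap between genotypes, and it fell by 1.06 on the log2 scale (SE 0.30, adjusted p = 0.0202, edgeR). That call was lost in 4 of the 6 fits with a sample left out. Leaving out WT replicate 3 or 5 gave an adjusted p of 0.0804 and 0.0585, and leaving out ARID1A-KO replicate 3 or 4 gave 0.0624 and 0.0660 (edgeR).

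PTPRO, known as GLEPP1 from kidney podocytes, gave 20, 34 and 21 reads in WT and 15, 8 and 19 in ARID1A-KO, or 0.30, 0.48 and 0.36 CPM against 0.22, 0.15 and 0.22 CPM. The CPM did not overlap, and PTPRO was called lower, with -0.94 on the log2 scale (SE 0.30, adjusted p = 0.0362, edgeR). With 8 reads in ARID1A-KO replicate 4, PTPRO passed the filter on low counts through its WT samples, where it was higher. Of the reads over PTPRO on both strands, 84.2% came from the strand opposite to the gene, and with counts taken without regard to strand its log2 fold change was 0.21. The call was lost in 5 of the 6 fits with a sample left out. Without WT replicate 4, WT replicate 5 and ARID1A-KO replicates 3, 4 and 5 the adjusted p was 0.131, 0.0704, 0.0720, 0.125 and 0.0588 (edgeR). With all 6 samples the call was also lost in DESeq2 (adjusted p = 0.136) and with the median change of its neighbours taken off (adjusted p = 0.0876, edgeR).

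**Figure D2:**
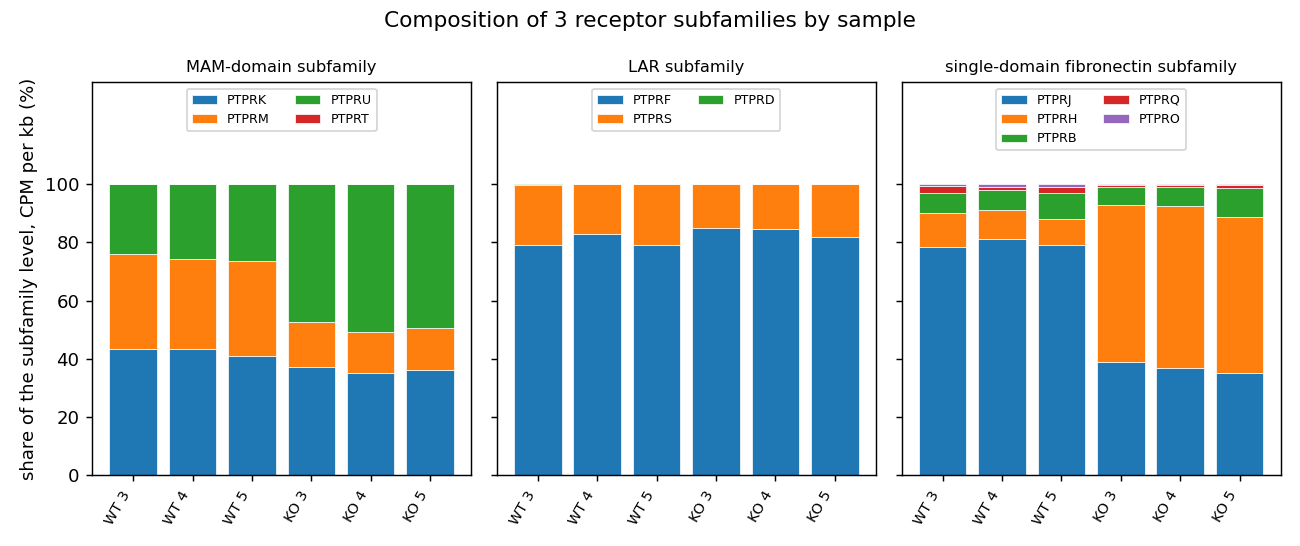
Share of each gene in the summed level (CPM per kb of exon, in percent) of 3 receptor subfamilies, one bar per sample. PTPRU and PTPRH take larger shares in the 3 ARID1A-KO (KO) bars than in the 3 WT bars, whereas PTPRF holds 80.3% in WT and 83.7% in ARID1A-KO of the subfamily named after LAR.

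PTPRF, PTPRS and PTPRD form the LAR subfamily, receptors of heparan and chondroitin sulfate proteoglycans that organise adhesions and synapses. PTPRF, or LAR, had the highest level of all 36 genes in both genotypes. It measured 611, 672 and 720 CPM in WT and 888, 963 and 818 CPM in ARID1A-KO, without overlap, and was higher 1.33-fold (adjusted p = 0.00471, edgeR). PTPRF alone gave 43.4% of the summed level per kb of the receptor genes in WT and 50.4% in ARID1A-KO. PTPRS, a receptor of proteoglycans on axons, stood at 15.3 and 16.1 CPM per kb and was not called (log2 fold change 0.08, 95% interval -0.17 to 0.33).

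PTPRD, a synaptic organiser that is often deleted in tumours, was rare and fell. It gave 49, 46 and 29 reads in WT and 6, 3 and 16 in ARID1A-KO, or 0.73, 0.65 and 0.50 CPM against 0.088, 0.055 and 0.18 CPM. The genotypes did not overlap, and the fall was 2.42 on the log2 scale (SE 0.37, 95% interval -3.27 to -1.58, adjusted p = 0.000983, edgeR). PTPRD passed the filter on low counts through its WT samples. Where at least 10 counts were required in every sample it was not tested. PTPRD was the 1 member in a region that moved with it. Its 22 tested neighbours within 5 Mb on chromosome 9 stood at a median of -1.27 on the log2 scale, and with that median taken off PTPRD stood at -1.16 (adjusted p = 0.0449, edgeR). The other 32 tested genes had neighbour medians between -0.20 and 0.20. In the neuron marker list, RBFOX3 and SYT1 rose, SNAP25 fell and STMN2 was not called, with a sum of 18.6 to 23.8 CPM in WT and 36.4 to 41.8 CPM in ARID1A-KO. Its part in the values of PTPRD and of PTPRN, PTPRN2 and PTPN5 below was not tested.

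**Figure D3:**
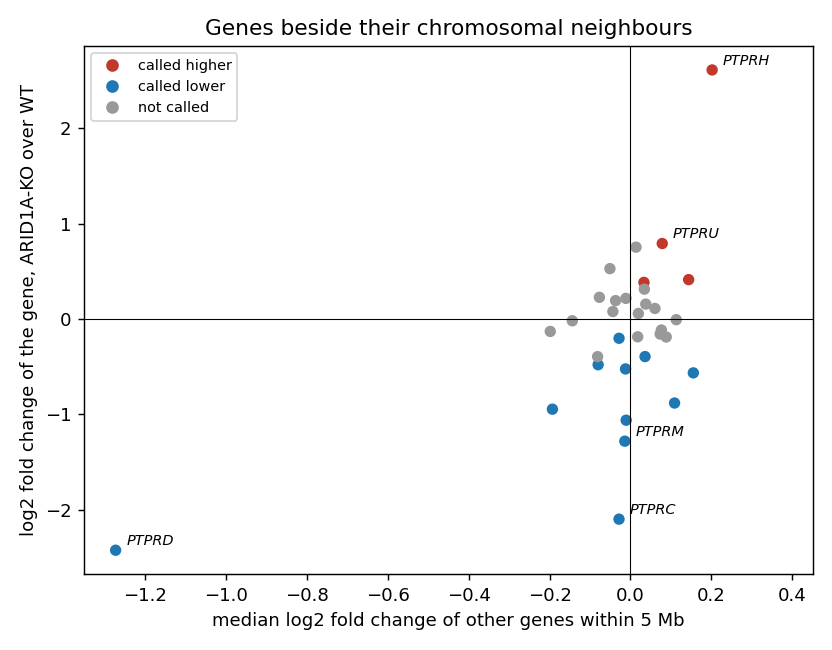
Log2 fold change of each tested gene (vertical axis) against the median log2 fold change of the other tested genes within 5 Mb (horizontal axis). PTPRD lies alone at the left with a neighbour median of -1.27, and the other 32 genes lie between -0.20 and 0.20.

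PTPRC, or CD45, is the receptor that keeps SRC family kinases ready for signalling in white blood cells, and it was read in these osteosarcoma cells at a low level. It gave 165, 106 and 109 reads in WT and 11, 27 and 60 in ARID1A-KO, or 2.47, 1.49 and 1.87 CPM against 0.16, 0.49 and 0.68 CPM. All WT samples were above all ARID1A-KO samples, with ARID1A-KO replicate 3 the lowest. PTPRC fell by 2.10 on the log2 scale (SE 0.39, 95% interval -2.99 to -1.21, adjusted p = 0.00292, edgeR), and the call held with each sample left out. Of 6 blood cell markers, CD3E, CD79A, LYZ and SPI1 were below the filter. CD14 was not called, and VAV1, a haematopoietic exchange factor, fell by 1.01 on the log2 scale (SE 0.09, adjusted p = 4.6e-05, edgeR). The sum of the 6 markers, almost wholly VAV1, was 20.3 to 22.8 CPM in WT and 10.1 to 11.7 CPM in ARID1A-KO, and its part in the fall of PTPRC was not tested. CD3E, a defining gene of T cells, was at or near 0 in every sample.

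PTPRN and PTPRN2 are catalytically inactive or nearly so and sit in the membrane of hormone-storing secretory granules, where they are known as autoantigens in diabetes. PTPRN was among the most abundant receptor members at 21.3 CPM per kb in WT and 24.8 in ARID1A-KO, and was not called (log2 fold change 0.22, 95% interval 0.03 to 0.40, adjusted p = 0.0673, edgeR). Leaving out replicate 5 of WT or of ARID1A-KO gave an adjusted p of 0.0316 and 0.0374 (edgeR). PTPRN2 measured 6.27, 6.49 and 8.28 CPM in WT and 4.69, 4.26 and 5.25 CPM in ARID1A-KO. The values did not overlap, and PTPRN2 fell by 0.56 on the log2 scale (SE 0.14, adjusted p = 0.0135, edgeR), with an adjusted p of 0.0603 without ARID1A-KO replicate 4 (edgeR).

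The remaining receptor genes were not called. PTPRE, a short-ectodomain relative of PTPRA that also acts on SRC kinases, had a log2 fold change of -0.01 (95% interval -0.28 to 0.27). PTPRG, whose outer part resembles carbonic anhydrase and binds contactins, had -0.19 (95% interval -0.37 to 0.00), and its CPM did not overlap between genotypes. PTPRZ1, its relative from glia, lay at 0.020 CPM per kb in WT and 0.025 in ARID1A-KO, too few reads to bound a change closely.

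**Figure D4:**
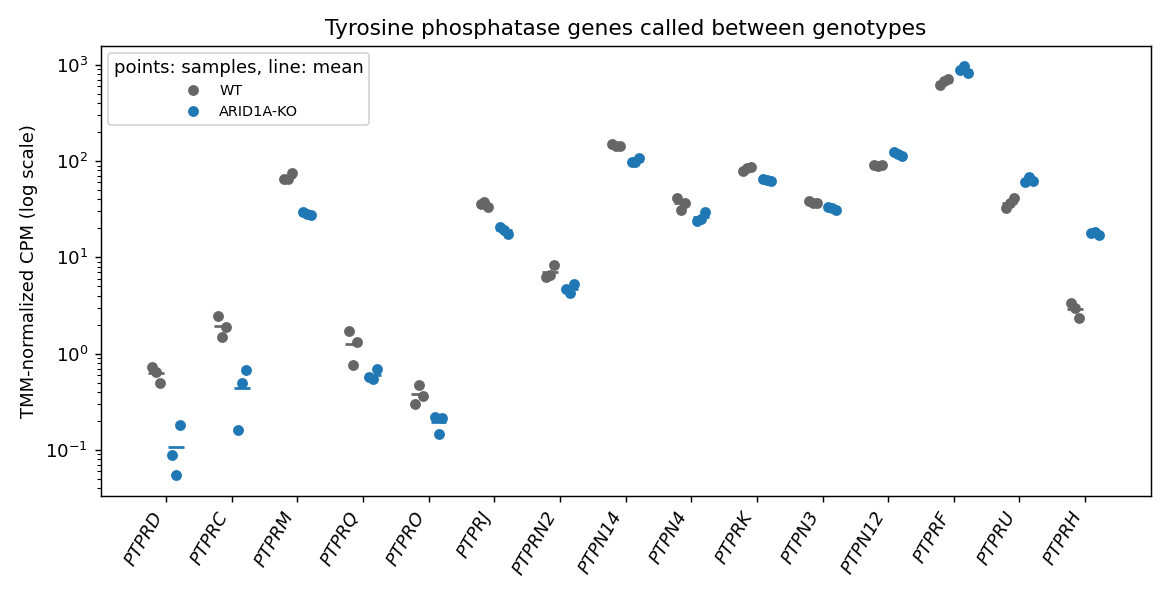
TMM-normalised CPM (log scale) of the 15 called genes in each of the 3 WT (grey) and 3 ARID1A-KO (blue) samples, ordered by log2 fold change, with lines at the group means. The genotypes do not overlap for any of the 15, and PTPRD, PTPRC, PTPRQ and PTPRO are the rarest. The 15 were called from these same samples, so their separation largely follows from that choice and is no further evidence.

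Among the non-receptor genes, PTPN14 and PTPN21 are FERM domain phosphatases, and PTPN14 is known as a partner and inhibitor of the growth regulator YAP. PTPN14 measured 150, 142 and 143 CPM in WT and 97.7, 98.2 and 107 CPM in ARID1A-KO. The genotypes were apart, and PTPN14 fell by 0.52 on the log2 scale (SE 0.06, adjusted p = 0.000207, edgeR), or 1.44-fold. PTPN21 was not called (log2 fold change 0.11, 95% interval -0.04 to 0.27), and the share of PTPN14 in the summed level of the pair was 61.4 ± 0.79% in WT and 50.6 ± 0.57% in ARID1A-KO (SD, n = 3 each). PTPN3 and PTPN4, which add a PDZ domain to the FERM domain, were both called lower. PTPN4 was lower 1.39-fold (adjusted p = 0.0118, edgeR) and PTPN3 1.15-fold (adjusted p = 0.0364, edgeR). The call of PTPN3 was lost without WT replicate 3 or 5 or ARID1A-KO replicate 3, 4 or 5, with an adjusted p of 0.101, 0.0511, 0.0836, 0.0995 and 0.0890 in that order (edgeR). It was also lost without the filter on low counts (adjusted p = 0.0787, edgeR) and with neighbour medians taken off (adjusted p = 0.0692, edgeR).

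PTPN12, or PTP-PEST, which dephosphorylates the focal adhesion scaffold p130Cas, was the 1 non-receptor gene that rose. It was higher 1.31-fold (adjusted p = 0.000911, edgeR), at 16.3 ± 0.19 CPM per kb in WT and 21.4 ± 1.0 in ARID1A-KO. PTPN18, a PEST relative that acts on HER2, had a log2 fold change of 0.16 (95% interval -0.01 to 0.33) and did not pass the test. PTPN22, the lymphocyte member of this subfamily, gave 2 to 9 reads a sample and was not tested.

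PTPN11, or SHP2, carries SH2 domains and promotes RAS signalling below growth factor receptors. It was the most abundant non-receptor gene, with 38.3% of the summed level per kb of that class in WT and 36.05% in ARID1A-KO. PTPN11 measured 397, 371 and 388 CPM in WT and 371, 360 and 338 CPM in ARID1A-KO. The WT samples were all above the ARID1A-KO samples by a small margin, and the test was not passed (log2 fold change -0.11, 95% interval -0.26 to 0.03, adjusted p = 0.189, edgeR). Its blood cell relative PTPN6, or SHP1, gave 3 to 9 reads a sample and was not tested.

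PTPN1, or PTP1B, which acts on the insulin receptor from the endoplasmic reticulum, and PTPN2, which acts on JAK and STAT proteins, were not called. Their log2 fold changes were -0.16 (95% interval -0.29 to -0.03) and -0.13 (95% interval -0.28 to 0.02). PTPN9, a Sec14 domain enzyme of secretory vesicles, had 0.19 (95% interval 0.04 to 0.35, adjusted p = 0.0546, edgeR), and an adjusted p of 0.0490 without ARID1A-KO replicate 5 (edgeR). The CPM of PTPN1, PTPN2, PTPN9, PTPN11 and PTPN18 did not overlap between genotypes although none was called. Called or not, 9 of the 14 tested non-receptor genes did not overlap, beside 49.5% of all tested genes, of which 36.2% were called. PTPN13, a large PDZ protein that binds the death receptor FAS, had -0.02 (95% interval -0.19 to 0.15), and PTPN23, an endosomal sorting protein, 0.06 (95% interval -0.11 to 0.23).

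PTPRR, PTPN7 and PTPN5 share a motif that docks onto MAP kinases, which they inactivate. None of them was called by edgeR's test with all 6 samples, whereas DESeq2 gave PTPN7 and PTPRR an adjusted p of 0.0366 and 0.0357. PTPN7, known from blood cells, measured 5.23, 9.23 and 5.79 CPM in WT and 10.75, 10.99 and 7.60 CPM in ARID1A-KO, where WT replicate 4 lay above ARID1A-KO replicate 5. Its log2 fold change was 0.53 (95% interval 0.03 to 1.03, adjusted p = 0.0915, edgeR). Without WT replicate 4 it was 0.82 (adjusted p = 0.00570, edgeR), and without ARID1A-KO replicate 5 the adjusted p was 0.0361. PTPRR had -0.39 (95% interval -0.73 to -0.05, adjusted p = 0.0698, edgeR), and an adjusted p of 0.0442 without WT replicate 3 and 0.0354 without ARID1A-KO replicate 5. PTPN5, or STEP, a neuronal enzyme, lay at 0.035 CPM per kb in WT and 0.060 in ARID1A-KO, with an adjusted p of 0.146 (edgeR) and of 0.0458 without ARID1A-KO replicate 5.

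For the 12 genes that were not called and reached 20 CPM in WT, the 95% intervals of the log2 fold change lay between -0.37 and 0.40, so larger changes of these genes were outside the intervals. For the 16 that were above 1 CPM the intervals reached from -0.73 to 1.03.

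Set side by side per kb of exon, 24 of the 36 genes stood at 1 CPM per kb or more in WT, 11 receptor and 13 non-receptor, and 24 did so in ARID1A-KO. The 7 genes at 10 CPM per kb or more in WT were PTPRF at 62.3 ± 5.1, PTPN11 at 55.1 ± 1.9, PTPRN, PTPN1, PTPN12, PTPRS and PTPN23. Neighbours in this order such as PTPRN at 21.3 and PTPN1 at 21.0 CPM per kb did not differ beyond their spread. The lowest 7 genes were under 0.1 CPM per kb in both genotypes. Summed over receptor genes the level was 143 ± 10.8 CPM per kb in WT and 165 ± 9.45 in ARID1A-KO (SD, n = 3 each). Summed over non-receptor genes it was 144 ± 1.18 and 141 ± 4.49, so in WT both classes had about the same total.

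**Figure D5:**
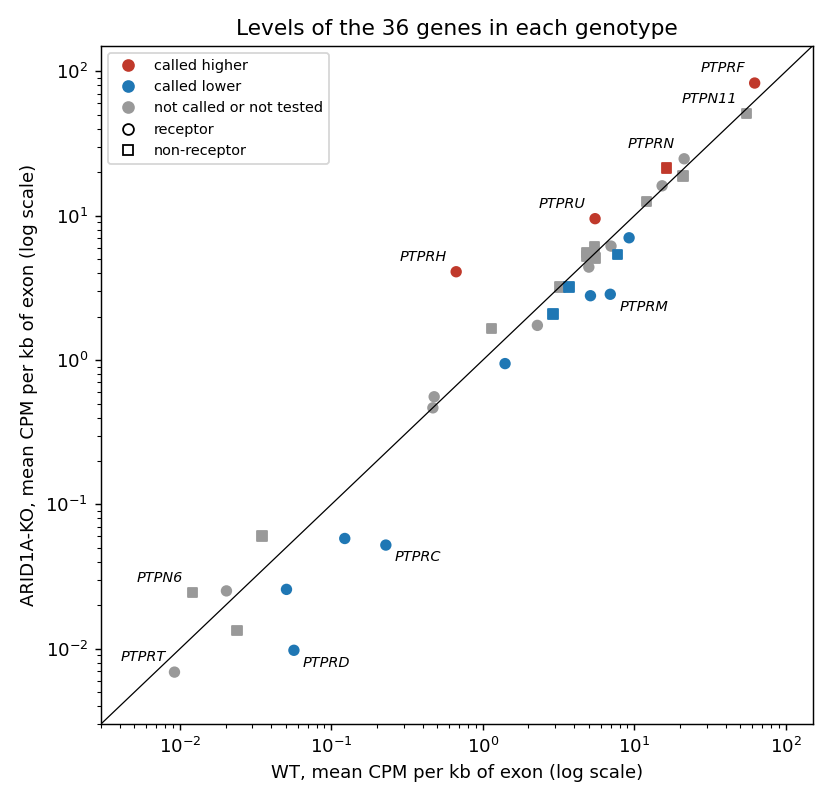
Mean level of each of the 36 genes in ARID1A-KO (vertical axis) against WT (horizontal axis), in CPM per kb of exon on log scales, with a line of equality. PTPRF and PTPN11 are highest, PTPRH lies farthest above the line, and PTPRD and PTPRC lie farthest below it.

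CG dinucleotides, which are dense in the promoters of broadly expressed genes, were counted at the outermost annotated starts of the members. Which start each gene used in these cells was not examined. In the window of 300 bases around the start, the median number was 24.5 for the 36 members, 18 for tested genes and 5 for all genes. It was 33 for the 24 members at 1 CPM per kb or more in WT and 10 for the other 12. Single genes departed from this in both directions. Among the 24, PTPN2 held 3, PTPRF 4, PTPRN 5, PTPRA 8 and PTPN7 and PTPN14 9 each, and among the 12, PTPRT held 54, PTPRD 38, PTPRE 32 and PTPRZ1 29. The letters TGANTCA, a form of the AP-1 motif and the same on both strands, occurred in the windows of PTPN2, PTPN7 and PTPN9, 8.33% of members beside 8.08% of all genes. Of tested members 9.09% held it, beside 6.32% of tested genes.

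Other genes of tyrosine phosphate signalling were counted from 3 lists, to be read beside the 17.8% of all tested genes that were higher and the 18.4% that were lower. Among tyrosine and dual-specificity phosphatases outside the PTPN and PTPR names, 32 of 35 were tested, 9 rose and 8 fell, with a median log2 fold change of 0.06. The 17 calls came to 10 without WT replicate 3, ARID1A-KO replicate 3 or ARID1A-KO replicate 4. The focal adhesion proteins TNS1 and TNS3, which carry phosphatase-like domains, fell by 1.46 (SE 0.11, adjusted p = 1.71e-05, edgeR) and 1.04 (SE 0.29, adjusted p = 0.0202, edgeR) on the log2 scale. DUSP23, a small dual-specificity enzyme, rose from 4, 5 and 0 reads to 25, 22 and 45 reads (log2 fold change 3.19, SE 0.51, adjusted p = 0.00129, edgeR). It passed the filter on low counts only through its ARID1A-KO samples.

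Of 37 ligands and partners of receptor phosphatases, 35 were tested, 8 rose and 13 fell (median -0.16). SLITRK5 and SLITRK6 belong to a family of neuronal ligands of LAR-type receptors. SLITRK5 rose from 0.10 to 1.87 CPM (log2 fold change 4.18, SE 0.28, adjusted p = 1.03e-05, edgeR), and SLITRK6 fell from 6.32 to 0.54 CPM (log2 fold change -3.56, SE 0.33, adjusted p = 5.15e-05, edgeR). The WT level of SLITRK5 was too low to pass the filter on low counts by itself. CNTN5 and CNTN6, contactins of the kind that PTPRG binds, had log2 fold changes of -2.61 and -2.94 (adjusted p = 0.00137 and 0.00817, edgeR), both from WT levels under 1 CPM. In ARID1A-KO both lay near or under the limit of the filter on low counts. They may therefore have been tested only through their WT samples, where they were higher. The secreted ligands of PTPRZ1, named after their values were seen, moved in opposite directions. PTN fell by 1.16 and MDK rose by 0.90 on the log2 scale, while PTPRZ1 itself was hardly read. Of 38 substrate and adaptor genes, 36 were tested, 3 rose and 15 fell (median -0.13), and none changed 2-fold. Also named after their values were seen, the 3 that rose were the adaptors GAB2 and SHC1 and the receptor EGFR, and the largest fall was that of the receptor MET at -0.90 on the log2 scale.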

How the data were processed

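RNA-seq tables of 3 WT and 3 ARID1A-KO samples, grouped by their labels, were used. The libraries came from a stranded total RNA kit, whereas the labels give polyA RNA as the molecule. The authors aligned paired reads to GRCh37 with STAR and deposited one featureCounts table per sample, in which counts are raw whole numbers. The reverse-stranded column was used, since forward-strand counts came to 5.83% to 6.15% of it. Deposited FPKM and TPM columns were not used here.

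After filterByExpr and TMM normalization, genotypes were compared over all 6 samples with edgeR's quasi-likelihood test in edgeR 4.0.16 under R 4.3.3, with Benjamini-Hochberg adjustment over 19599 genes. Genes with an adjusted p under 0.05, the threshold of the study, were called. SEs are the absolute log2 fold change over the square root of F. CPM are TMM-normalised, and levels are divided by exonic length. Neighbour medians used tested genes starting within 5 Mb. The members and lists were chosen with earlier results of these data known.

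Every member is named. Called members with an absolute log2 fold change of at least 0.5 have the CPM of all samples, other called members the fold, and the rest a level or interval. From the other lists, at most 4 called genes of at least 1 on that scale are named, by size. Chi-square per gene between samples of a genotype was 7.57 to 32.9, above sampling noise. Sequences are from the GRCh37 reference. Alternatives were unstranded counts, RLE, DESeq2 1.42.0, other filters, a replicate block, neighbour offsets, samples left out and an adjusted p under 0.01. Protein sequences were not analysed here. The result of 1 marker gene is not reported here.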

Additional observations from a re-analysis of the deposited data

Results flagged for a closer look

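Reads on the strand opposite to a gene lie outside the comparisons above. For 4 members every ARID1A-KO sample was above every WT sample on that strand. At PTPN6 the mean was 0.813 CPM in WT and 1.33 CPM in ARID1A-KO, and 92.2% of all reads over this gene were of that strand. At PTPRH the mean was 0.131 and 0.513 CPM, with 10, 5 and 10 reads in WT and 35, 27 and 47 in ARID1A-KO. Reads on PTPRH's own strand rose as well, and 3.02% of all reads over this gene were of the opposite strand. At PTPRN the mean was 0.0523 and 0.115 CPM, from 2 to 9 reads a sample. PTPRN2 had 0, 2 and 0 such reads in WT and 2, 2 and 5 in ARID1A-KO. These differences were not tested. Groups of 3 samples were not examined for outlying samples.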

How the results depend on the processing

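The 33 tested genes gave 15 calls. Over the members that passed the filter of each alternative, DESeq2 gave 16, RLE 15 and at least 10 counts in every sample 14. There were 17 without a filter, 17 with neighbour medians taken off and 15 with unstranded counts. In that order, 14, 15, 13, 14, 13 and 14 of these calls were among the 15. PTPRD and PTPRO had under 10 counts in some samples and were not tested with that filter. The calls from unstranded counts included PTPN6, which was not tested above (adjusted p = 0.00889, edgeR). The median log2 fold change of the tested members was -0.019 with unstranded counts and -0.019 with at least 10 counts in every sample. PTPRO reversed to 0.21 with unstranded counts, where its adjusted p in edgeR was 0.511. At an adjusted p under 0.01 in edgeR, 10 members were called, 6 of them lower, with 10 other tyrosine phosphatases and 4414 of all genes.

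With 1 sample left out, 11 to 18 members were called, 4 to 8 higher and 7 to 11 lower, with medians of -0.14 to -0.077. The other tyrosine phosphatases called were 10 to 17, the ligands and partners 17 to 22, the substrates and adaptors 14 to 17, all genes 5285 to 7050, and ARID1A stood at -2.78 to -2.72 on the log2 scale. Samples with the same number had deviations that correlated at -0.245, 0.504 and 0.329 for numbers 3, 4 and 5, so the numbers were not taken to pair the samples. With the replicate number as a block, 16 members were called, 5 higher and 11 lower, 14 of them among the 15. The block gave adjusted p of 0.0191 for PTPN7, 0.0121 for PTPRR and 0.0614 for PTPRO (edgeR). PTPN7, PTPRR and PTPRN passed without a filter on low counts (adjusted p = 0.000663, 0.00703 and 0.0313, edgeR), PTPRA with at least 10 counts in every sample (0.0499), and PTPRA, PTPN1, PTPN9 and PTPN11 with neighbour medians taken off (0.0128, 0.0150, 0.0313 and 0.0454). PTPN3, PTPRO, PTPRQ and PTPRN2 lost their call in 5, 5, 4 and 1 of these 6 fits with a sample left out, and PTPRO and PTPRQ rest on few reads.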
